A study of Mus musculus with 48 samples.

Results

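The Mycl1 region is the stretch of mouse chromosome 4 from 120 to 125 Mb (build mm9), with the Mycl1 gene placed near 122.67 Mb. Its members are the ATAC-seq summits, the points of highest signal within called peaks, that fall between those bounds in 3 deposited lists. They number 2518 of 630424 summits in all (0.399%), with 874 of 251512 in a CMV pool, 586 of 172434 in a CGRP pool and 1058 of 206478 in a mixed pool. The region was chosen by the place of Mycl1 and by measured values of these data, namely where merged peaks and summits fall. The authors' merged list, which holds 2911 peaks on chromosome 4, holds 0 in the region and 0 in its flanks at 110 to 120 and 125 to 135 Mb. Its nearest entries end at 97989381 and start at 148000816. The summit lists therefore carry the description, and the density, score and sharing of summits are given with no test.

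ATAC-seq marks accessible DNA by the insertion of adapters by the Tn5 transposase, and was applied here to 48 tumor libraries from mice that model small cell lung cancer. Every library carries the genotype Trp53-/-;Rb1-/-;p130-/-;R26mG, so the loss of 3 tumor suppressors and a fluorescent reporter at Rosa26 are shared by all groups. An adenovirus brought in Cre, expressed in Ad-CMV-Cre from the CMV promoter, which is active in many cell types, and in Ad-CGRP-Cre from the promoter of a neuroendocrine peptide. The design text names primary tumors and metastases after each virus.

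Peaks were called on pooled libraries, and 1 list stands for each pool. The CMV pool held 19 Ad-CMV-Cre libraries of preparation batch 1, from 9 lung tumors and 10 liver metastases. Of these, 8 were labelled as amplified at Nfib, the gene of the transcription factor nuclear factor I/B. Another label marked 15 as not included for low ATAC-seq enrichment, although the descriptions of all 19 name this pool's list. The titles of 15 libraries of this pool contain the word re-analysis, and those of the other pools do not. The CGRP pool held 14 Ad-CGRP-Cre libraries of batch 2, from 7 lung tumors and 7 liver metastases, of which 1 was labelled as Nfib-amplified. The mixed pool held 15 libraries of batch 3, 11 with Ad-CMV-Cre and 4 with Ad-CGRP-Cre, from 11 lung tumors, 3 liver metastases and 1 lymph node metastasis, and 6 were labelled as Nfib-amplified. In sequencing, 15 CMV libraries were labelled as batch 1 and 4 as batch 3, all 14 CGRP libraries as batch 2 and all 15 mixed libraries as batch 3. Virus, tumor site, preparation batch, sequencing batch, library quality and a re-analysis title differ together between the pools and cannot be told apart. Neither can the number of libraries pooled. No value per library was used, so nothing here separates 1 library from the rest of its pool, and sequencing depth is unknown. The labels used here give neither the copy number of Mycl1 nor the age of the mice, and they do not say which libraries share an animal.

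Mycl1, now named Mycl, encodes L-Myc, a member of the Myc family of basic helix-loop-helix leucine zipper transcription factors. Myc proteins pair with Max and bind the E-box in DNA, and they drive genes of growth, ribosome production and metabolism. L-Myc was first described through its amplification in human small cell lung cancer, and Mycl1 is also a known target of copy gain in mouse models of this tumor that lack Rb1 and Trp53.

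The promoter is shown because the summits closest to Mycl1, described further on, lie a few kilobases from its stated place. In RefSeq the 250 bases before the start of Mycl are chr4:122995681-122995930 on the plus strand of GRCm38.p6, a later build than that of the summits, so no summit was placed on them. The capitals mark the letters of a GC box (GGGCGG), which begin 84 bases before the start, and those of a TATA box (TATAAA), which begin 8 bases before it. Both are matches of letters only, and whether either works as such a box was not tested.
Mycl promoter: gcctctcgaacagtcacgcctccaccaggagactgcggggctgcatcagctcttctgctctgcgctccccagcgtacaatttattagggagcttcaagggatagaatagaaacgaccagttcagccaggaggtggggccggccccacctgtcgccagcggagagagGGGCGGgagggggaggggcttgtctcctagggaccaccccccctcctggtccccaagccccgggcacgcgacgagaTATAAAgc
This promoter was 63.6% G or C. Both strands were searched for 5 sets of letters, and the matches do not overlap. Over 32851 mouse promoters of the same length, 32.7% held GGGCGG and 12.4% held TATAAA. The E-box CACGTG, held by 6.02% of promoters, was not among these 250 letters. Nor were CAGCTG (13% of promoters) or TTGGC, the half-site of the nuclear factor I family (41.5%). In RefSeq order, the genes before Mycl are Mfsd2a, a lipid transporter of the cell membrane, Cap1, a regulator of actin, and Ppt1, a lysosomal thioesterase. After it come Trit1, which modifies transfer RNA, and Bmp8b, a secreted ligand of the bone morphogenetic protein family. No gene was assigned to a summit, since the annotation at hand is of the later build.

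Summits were crowded in the region in the CMV and mixed pools and near the level of its flanks in the CGRP pool. The mixed pool had 21.2 summits per 100 kb in the region and 11.3 in the flanks, a ratio of 1.87 (95% exact Clopper-Pearson interval 1.73 to 2.01). The CMV pool had 17.5 and 12.5, a ratio of 1.40 (1.29 to 1.51). The CGRP pool had 11.7 and 10.8, a ratio of 1.08 (0.988 to 1.19), whose interval includes equal density. These intervals and those below cover counting error only, because neighbouring summits are not replicates and each pool is a single list. Over the whole genome the lists averaged 9.50 summits per 100 kb in the CMV pool, 6.50 in the CGRP pool and 7.80 in the mixed pool. The choice of flank moved these ratios: against the lower flank alone the CGRP ratio was 1.42 and against the upper flank alone 0.876, so its direction turned. Among the 100000 highest-scoring summits of each list, the CMV ratio was 0.842 and the CGRP ratio 0.904, both turned, while the mixed ratio was 1.28.

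The bounds of the region were set in round numbers, and counts changed across them. In the last 500 kb outside the lower bound and the first 500 kb inside it, the CMV pool had 105 and 56 summits, the CGRP pool 106 and 66, and the mixed pool 122 and 63. Each pool had fewer summits inside the lower bound than outside it. On the upper bound the counts inside and outside were 85 and 165 in the CMV pool, 103 and 44 in the CGRP pool, and 98 and 61 in the mixed pool.

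**Figure D1:**
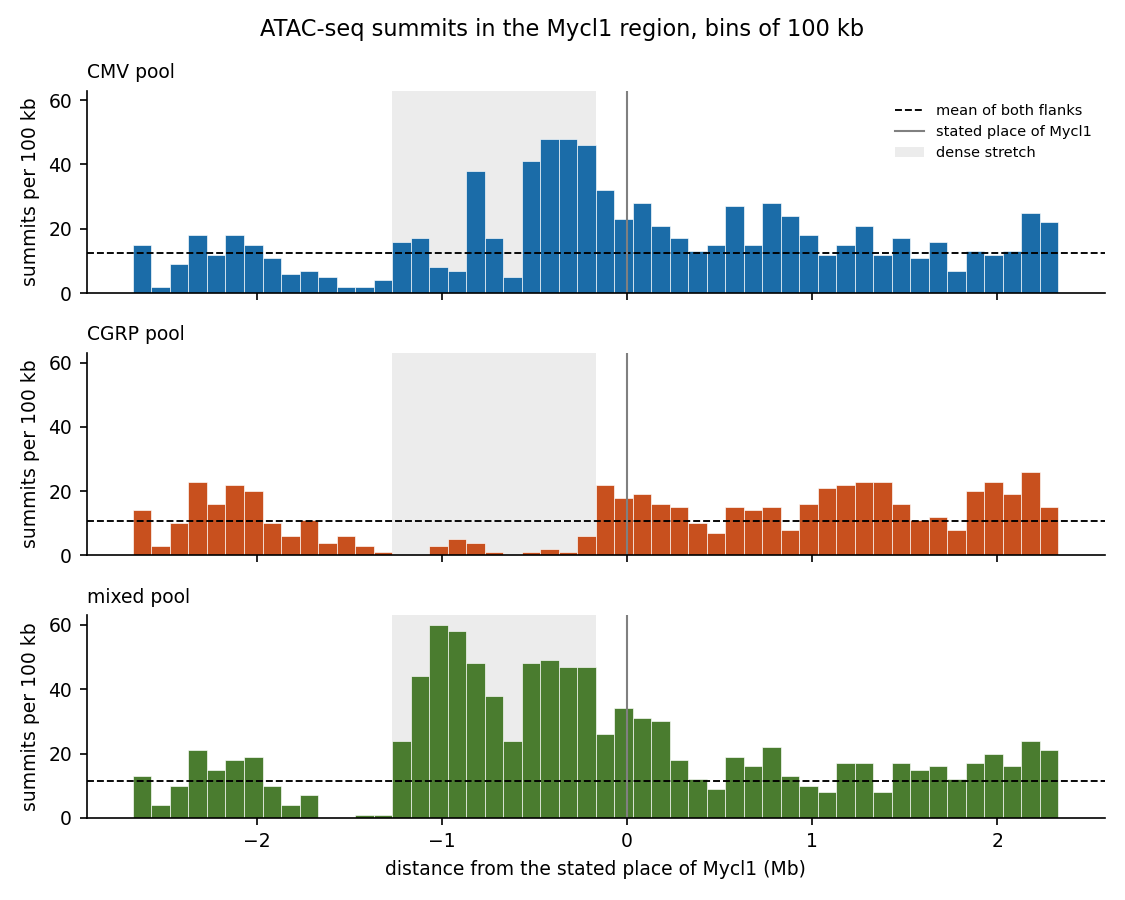
Summits per bin of 100 kb across the region in each pool, plotted against distance from the stated place of Mycl1, with the dashed line at the mean of the flanks and the dense stretch shaded. In the shaded 1.1 Mb the mixed pool has 24 to 60 summits per bin and the CGRP pool 0 to 6.

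The crowding lay largely in 1 stretch. From 121.4 to 122.5 Mb, 11 bins of 100 kb in a row had more than 2 times the flank mean in the mixed pool and less than the flank mean in the CGRP pool. This dense stretch was defined after the counts were seen. It held 487 summits of the mixed pool (44.3 per 100 kb, 3.90 times the flanks, 3.53 to 4.31) and 291 of the CMV pool (26.5 per 100 kb, 2.11 times, 1.87 to 2.39). The CGRP pool had 23 there (2.09 per 100 kb, 0.193 times its flanks, 0.122 to 0.291). The directions in the mixed and CGRP pools were fixed by that definition, whereas the CMV pool took no part in it. The CMV pool was above its flanks over the stretch as a whole but not in each bin, with 8 summits at 121.6 Mb, 7 at 121.7 Mb and 5 at 122 Mb against a flank mean of 12.5.

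Outside the dense stretch the ratios to the flanks were 1.19 in the CMV pool (1.09 to 1.31), 1.34 in the CGRP pool (1.21 to 1.47) and 1.29 in the mixed pool (1.18 to 1.42). The parts on either side were unlike. Between 120 and 121.4 Mb the pools had 126, 149 and 123 summits, in that order, or 0.719 (0.596 to 0.860), 0.985 (0.828 to 1.16) and 0.774 (0.641 to 0.929) times their flanks. Between 122.5 and 125 Mb they had 457, 414 and 448, or 1.46, 1.53 and 1.58 times.

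Within the dense stretch the mixed pool was high throughout, as the definition required. The CMV pool, which took no part in the definition, had most of its summits of the stretch in the last 4 bins. Its rise along the stretch was not steady, with 38 summits at 121.8 Mb and 5 at 122 Mb. Beyond the stretch its count fell, to 32 at 122.5 Mb and 23 at 122.6 Mb, the bin that holds the stated place of Mycl1. In the first 4 bins, from 121.4 to 121.8 Mb, the mixed pool had 186 summits, the CMV pool 48 and the CGRP pool 8. In the next 3 bins they had 110, 60 and 5. In the last 4 bins, from 122.1 to 122.5 Mb, they had 191, 183 and 10. The mixed pool's densest bins began at 121.6 Mb with 60 summits, at 121.7 Mb with 58 and at 122.2 Mb with 49. Those of the CMV pool began at 122.2 and 122.3 Mb with 48 each and at 122.4 Mb with 46. The CGRP pool's densest bins lay outside the stretch, at 124.8 Mb with 26 and at 120.3 and 123.9 Mb with 23 each, and its emptiest, with 0 summits, began at 121.4, 121.5 and 122 Mb.

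The CGRP pool had 0 summits in 3 bins of the stretch. The bin at 121.4 Mb held 16 CMV and 24 mixed summits, the bin at 121.5 Mb held 17 and 44, and the bin at 122 Mb held 5 and 24. By the count alone, the CMV pool stood furthest above the CGRP pool at 122.3 Mb, with 48 summits and 1. The mixed pool stood furthest above the CMV pool at 121.7 Mb, with 58 summits and 7, a ratio of 9.14 after division by each pool's flank mean, and at 121.6 Mb, with 60 and 8, a ratio of 8.28. The 4 bins just before the stretch were sparse in each pool. From 121 Mb on, the CMV pool had 5, 2, 2 and 4 summits in them, the CGRP pool 4, 6, 3 and 1, and the mixed pool 0, 0, 1 and 1. Further on, the bin at 124 Mb held 23 CGRP summits, 12 CMV and 8 mixed.

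The ends of the dense stretch are where bins stopped passing its definition. Steps in the mixed and CGRP counts at the ends were therefore in part fixed by it, whereas the CMV pool took no part in it. Across the lower end, from the 200 kb before to the 200 kb after, the mixed pool went from 2 summits to 68, the CMV pool from 6 to 33 and the CGRP pool from 4 to 0. Across the upper end, the CGRP pool went from 7 to 40, the mixed pool from 94 to 60 and the CMV pool from 94 to 55. The longest gap without a CGRP summit, 204 kb from 121399289 to 121603469, began at the lower end. The mixed pool's longest gap, 253 kb from 120972725 to 121225987, ended before it. The lower end was at 121.4 Mb with bins of 50 kb as well, where 20 of 100 bins passed and the last of them ended at 122.85 Mb, so the upper end is less sharply set. With bins of 500 kb, 2 of 10 passed, from 121.5 to 122.5 Mb.

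The same pair of limits was then applied to every bin of chromosomes 1 to 19 and X. It was passed by 11 of 50 bins of the region beside 0.0871% of bins genome-wide (23 of 26395) and 0 of 200 flank bins. Those 11 formed the longest run, and the next longest, also on chromosome 4, had 3 bins from 104.6 to 104.9 Mb. As the limits were set on this stretch, the run lengths describe it and test nothing. With the CMV pool in place of the mixed pool, 5 of 50 bins of the region passed beside 0.402% genome-wide (106 of 26395), and 6 of the flank bins. Its longest run was elsewhere on chromosome 4, with 10 bins from 84.9 to 85.9 Mb.

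Median scores in the region were lower than in the flanks in each list with all summits counted. The score was read as the −log10 of the peak caller's q-value as the authors deposited it, and it orders summits within a list only. Its median was 6.46 in the region and 12.8 in the flanks of the CMV pool, 15.5 and 26.2 in the CGRP pool, and 9.92 and 20.4 in the mixed pool. Over whole lists the medians were 8.68, 24.3 and 16.8, in the same order. Among the 100000 highest-scoring summits of each list the sign of the difference turned, but each interval included 0. The region's median was higher by 4.83 in the CMV pool (-9.63 to 26.8), by 18.9 in the CGRP pool (-4.86 to 55.4) and by 15.7 in the mixed pool (-1.78 to 39.1). These intervals carry the error of the region's median alone. Without the dense stretch the mixed difference was -3.13 (-6.96 to 2.16), and at a score minimum of 5 the CGRP difference was -3.13 (-12.2 to 4.18), and both intervals include 0.

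The low scores were most frequent in the dense stretch. There the median was 7.63 in the mixed pool (95% order-statistic interval 6.95 to 8.49), 5.12 in the CMV pool (4.54 to 5.73) and 5.43 in the CGRP pool (3.12 to 67.4, from 23 summits). In the rest of the region it was 17.3 in the mixed pool, 8.15 in the CMV pool and 15.8 in the CGRP pool. Of the CMV summits of the stretch, 49.1% scored under 5, beside 32.6% in the rest of the region and 33.4% genome-wide. For the mixed pool these shares were 34.1%, 22.4% and 18.4%. Summits that scored over 100 numbered 24 of 487 in the mixed pool's stretch (4.93%) and 152 of 571 in the rest (26.6%), beside 16.8% genome-wide. In the CMV pool they were 2 of 291 (0.687%) and 96 of 583 (16.5%), beside 9.23% genome-wide. The rest of the region thus lay above the genome-wide share in both lists. Within each of these lists, the summits of the crowded bins thus stood lower than those of the rest of the region.

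Summits of the dense stretch also more often shared a peak. Of the mixed pool's peaks there, 33.5% held several summits, beside 18% in the rest of the region, and in the CMV pool 25.6% beside 17.3%. In the CGRP pool the shares were 9.52% of 21 peaks and 18.1%. With 1 summit kept per peak, the mixed pool's ratio of region to flanks was 1.66 in place of 1.87.

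**Figure D2:**
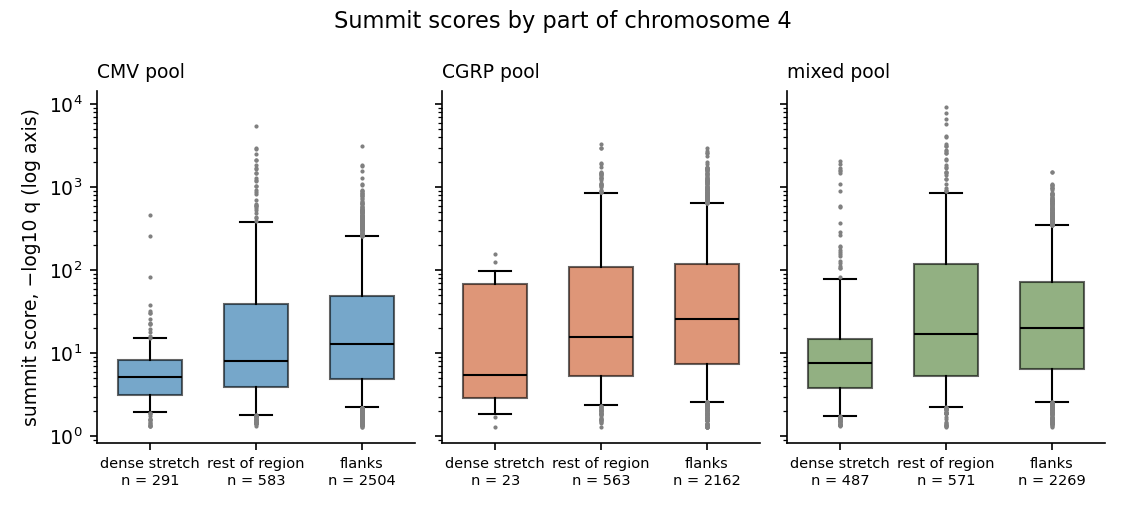
Box plots of summit scores (−log10 q, log axis) in the dense stretch, the rest of the region and the flanks for each pool, with the line at the median, the box at the quartiles, whiskers at the 5th and 95th percentiles and points for summits beyond them. The medians of the stretch are 5.12, 5.43 and 7.63 in the CMV, CGRP and mixed pools. Those of the rest of the region are higher, at 8.15, 15.8 and 17.3. For the CGRP pool, with 23 summits in the stretch, the interval of that median is 3.12 to 67.4 and includes 15.8.

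A summit was counted as shared when the other pool had a summit within 250 bp. In the region, 403 of 874 CMV summits (46.1%) lay near a CGRP summit, beside 49.9% of CMV summits genome-wide and 64.3% in the flanks. Near a mixed summit lay 635 of them (72.7%), beside 64% genome-wide and 71.1% in the flanks. Both other pools had a summit at 374 of them (42.8%), beside 46.7% genome-wide and 60.0% in the flanks.

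CGRP summits of the region lay near a mixed summit less often than those genome-wide, and more often had no partner. A mixed summit was near 438 of 586 (74.7%, 71.02 to 78.21), beside 81.9% genome-wide. Neither was near 120 (20.5%, 17.28 to 23.98), beside 13.6% genome-wide. A CMV summit was near 399 (68.1%, 64.15 to 71.85), beside 71.3% genome-wide. Both were near 371 (63.3%, 59.26 to 67.22), beside 66.8% genome-wide. The intervals of the share near a CMV summit and of the share near both include the genome-wide share. In the flanks, 79.3% of CGRP summits lay near a mixed summit, 73.3% near a CMV summit, 68.1% near both and 15.5% near neither. Each of these flank shares lies outside the region's interval.

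The mixed pool departed most from its own background. Of its 1058 summits in the region, 440 (41.6%) lay near a CGRP summit, beside 68.7% genome-wide, and 640 (60.5%) near a CMV summit, beside 76.6% genome-wide. Both were near 373 (35.3%), beside 56.1% genome-wide, and 351 (33.2%) had no partner in either list, beside 10.8% genome-wide. In the flanks 11.6% of mixed summits had none.

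That departure lay mainly in the dense stretch. Its definition required many mixed and few CGRP summits, so low sharing with the CGRP pool there was fixed by it. The CMV pool took no part in the definition, but the choice of bins with many mixed summits also bears on the shares below. Of the 487 mixed summits there, 272 (55.9%, 51.3 to 60.3) had no partner, beside 79 of 571 (13.8%) in the rest of the region. Near a CGRP summit lay 20 (4.11%), where the CGRP pool had 23 summits, and 213 (43.7%, 39.3 to 48.3) lay near a CMV summit. In the other direction, 211 of 291 CMV summits of the stretch (72.5%, 67.0 to 77.6) lay near a mixed summit and 19 (6.53%) near a CGRP summit. For comparison, 19.2% of the bases of the stretch lay within 250 bp of a mixed summit, 11.8% within 250 bp of a CMV summit and 0.982% within 250 bp of a CGRP summit. Of the 23 CGRP summits of the stretch, 21 lay near a mixed summit (91.3%, 71.96 to 98.93), beside 81.9% genome-wide. Near a CMV summit lay 19 of 23 (82.6%, 61.22 to 95.05), beside 71.3% genome-wide. Both intervals include the genome-wide share.

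In the rest of the region, sharing by mixed summits was higher in each higher band of score. Near a CMV summit lay 62 of 128 scoring under 5, 117 of 169 from 5 to 20, 102 of 122 from 20 to 100 and 146 of 152 over 100. In the flanks these shares were 43.4%, 68.7%, 92.5% and 99.3%, so the rise with score was not particular to the region. In the dense stretch the counts were 44 of 166, 102 of 232, 51 of 65 and 16 of 24. The share there was highest in the band from 20 to 100, but the band over 100 held only 24 summits. Over 100, 7 of 24 mixed summits of the stretch, which was defined to hold few CGRP summits, lay near a CGRP summit, beside 139 of 152 in the rest. CMV summits scoring over 100 in the rest of the region had a partner in each of the other pools in 96 of 96 cases. In the flanks 93.1% of such CMV summits lay near a CGRP summit and 95.3% near a mixed summit.

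**Figure D3:**
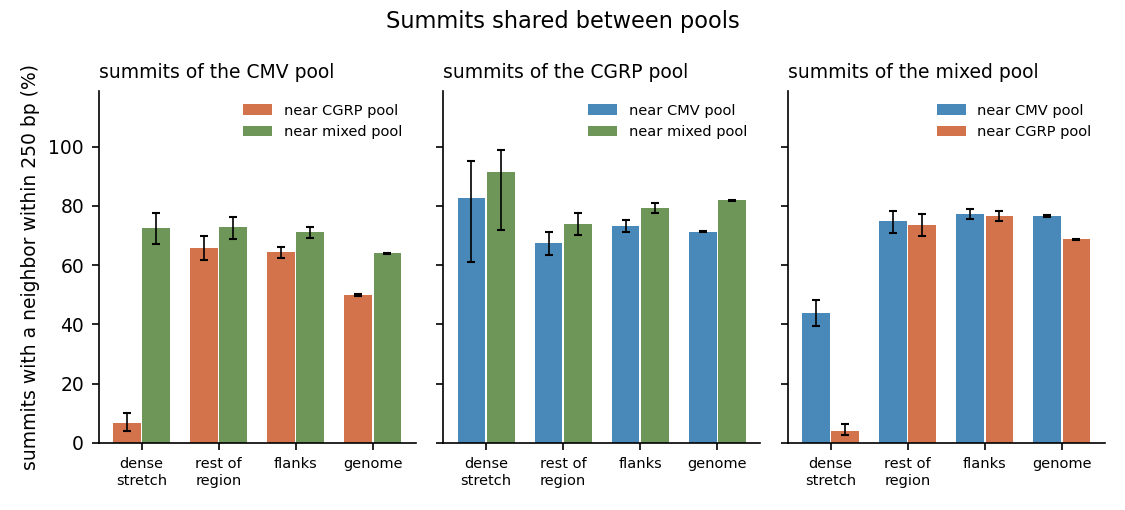
Percent of summits of each pool with another pool's summit no more than 250 bp away, in the dense stretch, the rest of the region, the flanks and the genome, with bars from 0 and exact 95% intervals (counting error only). Mixed-pool summits of the stretch are near a CGRP summit in 4.11% of cases and near a CMV summit in 43.7%. The low share near CGRP summits was fixed by the definition of the stretch.

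The highest-scoring summits found in 1 pool alone are listed here by place. The highest-scoring ones of the mixed pool were all in the dense stretch, at 121770137 with a score of 573.6, at 121779342 with 372.3 and at 122366151 with 289.1. Those of the CMV pool were at 122455402 with 261.5 and at 122383541 with 25.5, both in the stretch, and at 122514202 with 28.5, just beyond it. Those of the CGRP pool were before the stretch, at 120322885 with 148.2, at 121072347 with 63.7 and at 120386987 with 62.7. The stretch was defined to hold many mixed and few CGRP summits, so the places of these mixed and CGRP sites partly follow from that.

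The highest scores of the region were on the other side of the dense stretch, around Mycl1, whose stated place is 170 kb beyond the stretch. That place is given to the nearest 10 kb, so distances from it can be off by 5 kb. The highest-scoring site of both the CMV and the mixed pool was 107 kb before it. Its score was 5495.99 in the CMV pool (position 122563311), 9351.8 in the mixed pool (122563316) and 2992.19 in the CGRP pool (122563295). A site 58.2 kb after Mycl1 was the CGRP pool's highest, at 3348.51 (122728269), and scored 2926.37 in the CMV pool (122728242) and 6551.35 in the mixed pool (122728255). A site 37.2 kb before Mycl1 scored 2890.75 in the CMV pool (122632791), 1875.48 in the CGRP pool (122632684) and 5801.18 in the mixed pool (122632756). These 3 sites had a summit in every pool, and the lowest of their score percentiles within a list was 99.49, at the third of them in the CGRP pool.

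Other high scores ranked differently from list to list. The site near 122860730, 191 kb after Mycl1, was second in the region in the mixed pool at 7873.51, with 923.4 in the CMV pool and 1300.44 in the CGRP pool. Near 122749016, the scores were 4088.88 in the mixed pool, 834.8 in the CMV pool and 1357.24 in the CGRP pool. Near 124993279, close to the upper bound, the CMV pool had 2507.01, the CGRP pool 167.8 and the mixed pool 301.1. A pair of sites 912 and 925 kb after Mycl1 was among the 5 highest in the CGRP pool. They were at 123582151 with 2964.89 (1675.17 in the CMV pool and 1835.93 in the mixed pool) and at 123594623 with 1926.93 (1461.09 and 1397.91).

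Within 50 kb of Mycl1 the CMV pool had 25 summits, the CGRP pool 18 and the mixed pool 33. Partners in both other pools were near 17, 16 and 17 of them, in that order, beside 46.7%, 66.8% and 56.1% of summits genome-wide. The mixed pool's 17 of 33 was not above its genome-wide share. No partner was near 3, 0 and 9, beside 32.8%, 13.6% and 10.8% genome-wide. The median score was 56.1 in the CMV pool, 185.0 in the CGRP pool and 107.0 in the mixed pool, against 6.46, 15.5 and 9.92 in the whole region. These medians moved with the window: within 25 kb they were 606.7, 351.4 and 173.4, and within 100 kb 32.0, 68.3 and 82.8, each above that of the whole region. Scores over 100 were held by 12, 11 and 17 summits, beside 9.23%, 25.1% and 16.8% of summits genome-wide. The surroundings of Mycl1 thus held high-scoring summits that the 3 lists had in common, and 9 of the 12 unshared summits were from the mixed pool. Sharing of high scores was not particular to this place. In the flanks, 99.3% of mixed summits scoring over 100 lay near a CMV summit and 98.6% near a CGRP summit.

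The summit nearest to the stated place of Mycl1, 2.89 kb after it, was found by every pool. It was at 122672888 in the CMV pool, at 122672891 in the CGRP pool and at 122672895 in the mixed pool, a spread of a few bases. It scored 1489.13, 1302.54 and 3160.2, above 99.95%, 98.6% and 99.96% of the respective list. Given the 5 kb by which the place can be off, a weaker site before it may be as near: the CMV pool had a summit at 122665374 with a score of 21.0 and the mixed pool one at 122665392 with 32.9, with no CGRP summit within 250 bp. Whether the first of these sites falls on the promoter printed above was not tested, since the builds differ. At 6.01 kb, the site at 122676014 scored 2107.73 in the CMV pool, 1083.63 in the CGRP pool and 2582.47 in the mixed pool. At 13.1 kb, the site at 122683089 scored 3295.64 in the mixed pool, 692.1 in the CMV pool and 716.8 in the CGRP pool. At 23.9 kb, the site at 122693851 scored 2129.84, 1303.67 in the CGRP pool and 2796.73 in the mixed pool.

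**Figure D4:**
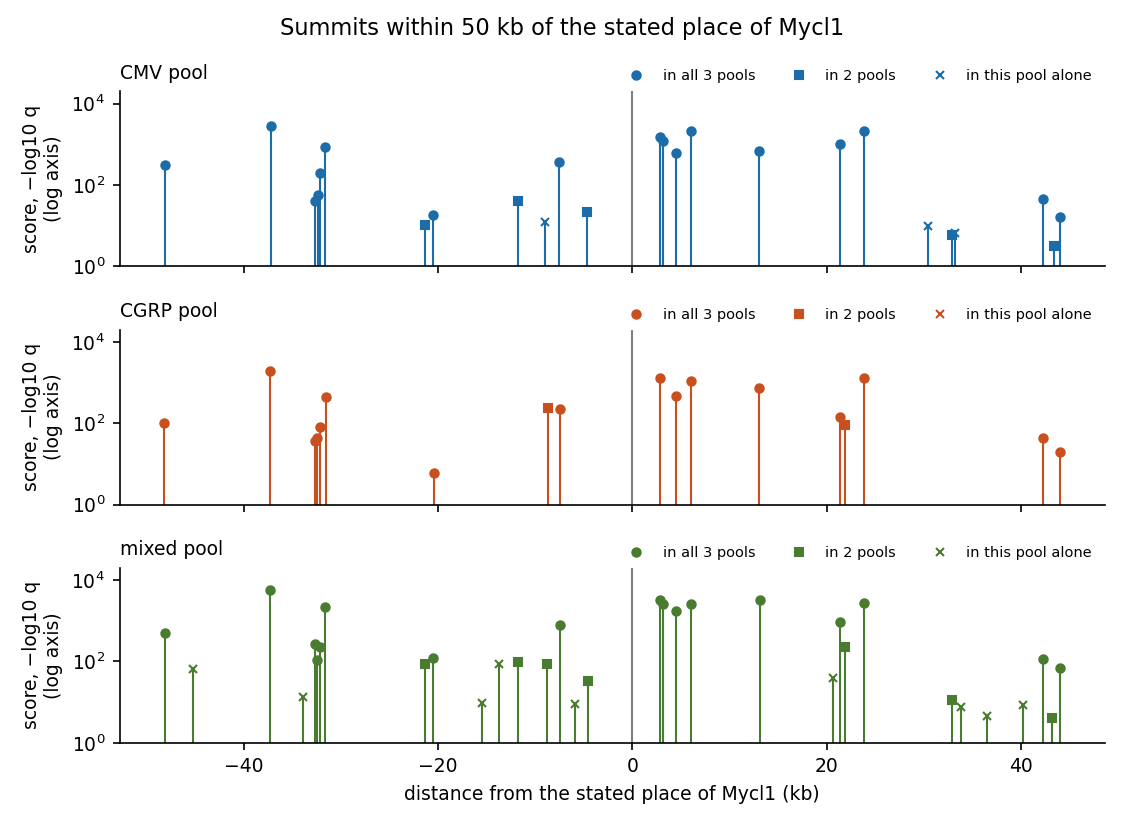
Score (−log10 q, log axis) of every summit within 50 kb of the stated place of Mycl1, by distance in kb, with the symbol showing whether a summit lay within 250 bp in both, 1 or none of the other pools. The nearest summit, at 2.89 kb, is shared by the 3 pools, and 9 of the mixed pool's 33 summits have no partner, beside 10.8% genome-wide.

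Summits in the top 0.1% of their list by score, a limit chosen after the values were seen, gathered after the dense stretch. In the mixed pool 18 of the region's 1058 summits were among them (1.70%, 1.01 to 2.68), beside 0.0998% genome-wide. Of these, 2 lay in the dense stretch and 16 from 122513373 to 123582163. The mixed pool's flanks held 0 of 2269, which allows a share of up to 0.132% when the limit for a count of 0 is taken as 3 counts (0.162% by the exact interval). In the CMV pool 14 of 874 were in the top 0.1% (1.60%, 0.878 to 2.67), beside 0.0998% genome-wide, 0 of them among the 291 of the stretch, which allows up to 1.03% by the same limit (1.26% by the exact interval). The CMV pool's flanks held 7 of 2504 (0.280%), of which 6 were in the upper flank between 125033937 and 125533733. In the CGRP pool 1 of 586 was in the top 0.1% (0.171%, 0.00432 to 0.947), beside 0.0997% genome-wide, a share near the background.

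The top-scoring summits were also counted in windows around Mycl1 itself, and no such window was placed elsewhere for comparison. Within 200 kb of Mycl1 lay 15 of the mixed pool's 18 and 8 of the CMV pool's 14, and the single CGRP summit. Within 50 kb lay 7 of the mixed pool's 33 summits, 5 of the CMV pool's 25 and 0 of the CGRP pool's 18. Since a score is not comparable between lists, these counts place the region within each list and do not measure how much accessibility differs between pools.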

How the data were processed

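ATAC-seq summits of 48 mouse tumor libraries were analysed as 3 pooled lists on build mm9. Per the labels, each library is tied to 1 pooled list. The submitters' processing notes name Bowtie2, MACS2, DESeq2 and mm9, with no version and no role. Steps such as trimming, deduplication or a Tn5 shift were not given in the sources used here. The score the authors deposited with each summit was read as −log10 of a q-value from its smallest value, 1.30, which is a q-value of 0.05. With 0 columns for single libraries, depth is unknown and no test was run. The authors' 2 comparison tables were not used, since no merged peak lies in the region.

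Region, flanks and gene place follow the stated rule. Summits were counted per 100 kb, and sharing means a summit of another pool within 250 bp. Ratios and shares carry exact Clopper-Pearson 95% intervals, and medians carry order-statistic intervals. Named sites are the 5 highest scores per pool, the 3 highest within 50 kb of Mycl1 and the nearest, the 5 sites high in every pool, the 3 highest in 1 pool alone, the fullest and emptiest bins, and the bins with extreme ratios between pools. The members and lists were chosen with earlier results of these data known. Scripts were tested on simulated data. Sequences are RefSeq's, with build GRCm38.p6, and Mycl1 was matched as Mycl. Coordinates are 1-based. Software was matplotlib 3.10.9, scipy 1.17.1, pandas 2.3.3, numpy 2.4.6 and Python 3.11.15. Alternatives covered the score minimum, the list length, summits per peak, the flanks, trimming of the region and the sharing distance.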

Additional observations from a re-analysis of the deposited data

How the results depend on the processing

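Values are given in the order CMV, CGRP and mixed pool, and only where they moved beyond the interval of the value reported or turned. With a score minimum of 5, density ratios were 1.16, 0.990 (turned) and 1.65, score differences -11.5, -3.13 (interval including 0) and -12.3, and the CMV share near both others 52.9%; with a minimum of 2 the CMV score difference was -6.90. Among the 100000 highest-scoring summits, ratios were 0.842 (turned), 0.904 (turned) and 1.28, score differences 4.83, 18.9 and 15.7 (all turned, each interval including 0), and shares 73.2% (CMV) and 49.0% (mixed). With 1 summit per peak, the CMV score difference was -7.13 and the mixed ratio 1.66. Against the lower flank alone, ratios were 1.80, 1.42 and 2.45 and score differences -3.16, -5.82 and -8.70. Against the upper flank alone, ratios were 1.14, 0.876 (turned) and 1.50, and score differences -9.27 (CMV) and -11.6 (mixed). Against the next 10 Mb beyond each flank, ratios were 1.26, 0.984 (turned) and 1.43. Without the first and last 1 Mb of the region, ratios were 1.63, 0.857 (turned) and 2.27, the CMV score difference -7.00, and shares 30.3% (CMV) and 24.0% (mixed). Sharing within 100 bp gave 35.0%, 54.1% and 29.3%. Leaving out the dense stretch, an alternative chosen after seeing the data, gave ratios of 1.19, 1.34 and 1.29, score differences of -4.65 (CMV) and -3.13 (mixed, interval including 0), and shares of 60.9% (CMV) and 62.2% (mixed). The cause of these shifts was not tested. The 18 alternatives for the number of summits per 100 kb around Mycl1 stayed within its interval. No paired analysis was possible because each pool is a single list with no test.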
